A study of Mus musculus with 20 samples.

Results

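Hippocampal RNA of Fmr1 KO mice was compared with that of C57 mice, for differences that went the same way in females and males. All 20 libraries of the series were used, 10 from Fmr1 KO mice against 10 from C57 mice, with the sex given in the titles (F or M) as a covariate. The 4 groups of 5 libraries were female C57 (F_C57), female Fmr1 KO (F_KO), male C57 (M_C57) and male Fmr1 KO (M_KO), and all came from hippocampus with no treatment named. The C57 animals are labelled WT, and the genotype field calls the KO animals Fmr1 knockdown where the titles say KO. The labels used here name no age, substrain or Fmr1 allele and do not say whether each library came from a separate animal, so the spread behind each p-value is that between libraries and may be technical. With no substrain named, an effect of Fmr1 loss cannot be told apart from other differences between the KO and C57 mice. Of 13256 genes listed in each library, 13174 reached 0.5 FPKM (fragments per kilobase of transcript, scaled to the mapped fragments of the library) in at least 5 libraries and were tested, and 331 of them were past the threshold in the fit of both sexes together and had the same sign in each sex.

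Fmr1 encodes FMRP, an RNA-binding protein that is abundant in neurons, travels into dendrites and holds back the translation of many synaptic mRNAs. Its best-known role in the hippocampus is to restrain protein synthesis that follows activation of metabotropic glutamate receptors, and its loss in people causes fragile X syndrome. Because FMRP acts mainly on translation, the RNA level of a bound mRNA is not its direct readout. In whole tissue, fewer cells of a type and less RNA per cell cannot be told apart.

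The targeted gene followed the labels in every library. Fmr1 (ENSMUSG00000000838.17, mm10 chromosome X, 68678541 to 68717963, plus strand) stood at 10.5, 10.5, 9.85, 11.1 and 11.3 FPKM in F_C57 and at 3.66, 2.90, 3.61, 3.10 and 3.32 FPKM in F_KO. It stood at 10.5, 11.8, 11.8, 11.4 and 11.3 FPKM in M_C57 and at 3.65, 3.41, 3.31, 3.70 and 3.72 FPKM in M_KO. No KO library came near a C57 library, and the mRNA was still read in all 10 KO libraries, at 31.2% of the C57 mean in females and 31.3% in males. The files give 1 value per gene, so which part of the Fmr1 mRNA these reads cover was not examined. The difference was -1.44 on the log2(FPKM + 1) scale, the scale of all differences below (SE 0.04, limma, adjusted p = 1.96e-16). An exact two-sided permutation test gave p = 0.0079 within each sex, the smallest that 252 splits of 10 libraries can give, and p = 3.1e-05 over both. The sexes were as labelled: Ddx3y, a Y-linked gene, lay between 12.6 and 17.6 FPKM in the M libraries and at no more than 0.0286 FPKM in the F libraries.

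Libraries also differed in genes of other tissues. Ttr, the transthyretin gene of choroid plexus, was above 500 FPKM in 4 libraries (F_C57 4, F_KO 4, F_KO 5 and M_KO 2) and between 8.37 and 169 FPKM in the other 16. Prl, the pituitary hormone prolactin, was above 4 FPKM in 3 libraries, all of them F_KO (2, 3 and 4), and at no more than 1.68 FPKM elsewhere. Expression in the 5 F_KO libraries also leaned toward genes of high GC content: their slopes of 0.0618 to 0.0759 log2 units per 10% GC lay above those of the 5 F_C57 libraries (-0.0279 to 0.0311), whereas the slopes of the M_KO (-0.0669 to 0.00678) and M_C57 libraries (-0.0951 to 0.0103) overlapped.

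With both sexes in 1 additive model, 333 genes passed an adjusted p of 0.05 (limma, 2.53% of those tested, with 2302 genes, 17.5%, at an unadjusted p under 0.05), 133 of them higher (1.01%) and 200 lower (1.52%) in KO. All 133 higher genes and 198 of the 200 lower genes had the same sign in F and in M, and the 2 exceptions were the muscle genes Ckm and Myh4. The shared fit averages the F and M differences, so this count was largely set by the fit. Of the 331, 312 had an unadjusted p under 0.05 in F alone, 231 in M alone and 212 in both. These p-values come from the libraries that made the calls, so they are no independent check. The differences were small. Their median size was 0.17, 216 of the 331 were under 0.2 and 7 reached 0.5. In 247 of the 331 genes the difference was larger in females, with a median size of 0.19 against 0.14 in males. Median GC content was 53.6% for the 133 higher genes, 45.0% for the 198 lower genes and 49.7% over all tested genes. Once each library's trend on GC content was removed, 270 genes were past the threshold with the same sign in both sexes, of which 216 were among the 331.

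**Figure D1:**
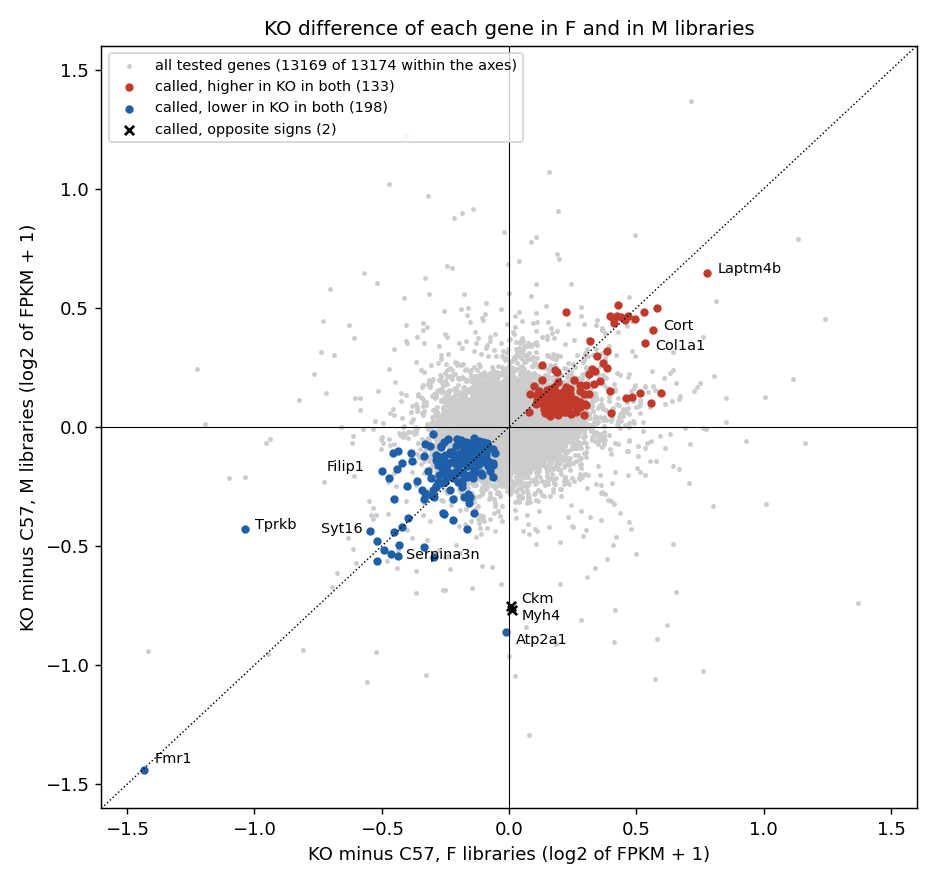
KO minus C57 difference of each tested gene in the 10 F libraries (horizontal) against the 10 M libraries (vertical), both as differences of mean log2(FPKM + 1), with genes past the threshold of the shared fit in color and the dotted line marking equal differences. The 331 genes that moved the same way fill the lower left and upper right, 247 of them with the larger difference in F. Ckm, Myh4 and Atp2a1, the last of which is among the 331, have a clear KO difference in male libraries alone.

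Since F and M libraries share no sample, the sexes were also fitted apart and set side by side. Fitted alone, females gave 91 genes past the threshold (0.691%) and males 5 (0.038%). At an unadjusted p under 0.05 females gave 2573 genes (19.5%) and males 1061 (8.05%), and 260 genes (1.97%) passed that mark in both sexes in the same direction, 106 higher and 154 lower, against 34 in opposite directions. Of the 91 female calls, 75 had the same sign in males and 19 also had a p under 0.05 there, a share of 20.9% beside 8.05% of all genes. Over all tested genes, 57.3% had the same sign in both sexes. The C57 and KO libraries did not overlap in either sex for 42 genes in the same direction (0.319%), 12 higher and 30 lower, and for 1 gene in opposite directions, the sodium channel gene Scn3a, which was named after its values were seen. Non-overlap alone was found for 789 genes (5.99%) in females and 264 genes (2.0%) in males.

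The count rested in part on a few libraries. Without the 4 libraries high in Ttr, 126 genes moved the same way past the threshold (109 of them among the 331), and without the 3 high in Prl it was 78 (73 among the 331). Leaving out F_KO 2 or F_KO 3 alone lowered the count to 205 or 208, and leaving out M_KO 3 lowered the genes that fell to 128. Across all 32 alternative fits, 39 of the 331 genes passed in every fit that tested them, 11 higher and 28 lower. Of the 102 called genes picked by the naming rule or added to it, 72 passed without each single library, 62 without the Ttr libraries and 53 without the Prl libraries. After removal of the GC trend 86 of the 102 passed. It ended the calls, described below, of Map1b (limma adjusted p = 0.0532), Nnat (0.0542), Lrrtm2 (0.0549), Carf (0.0559), Trpc6 (0.0564), Sytl2 (0.0592), Marveld1 (0.0611) and Serpinh1 (0.0636). Also ended were those of Kcnq3 (0.0679), Vamp2 (0.069), Tmem214 (0.0724), Ncl (0.0735), Cnksr2 (0.0764), Ugt8a (0.0816), Slitrk2 (0.0845) and Tnxb (0.106). The 39 open the description that follows and were chosen after their values were seen, and most other genes are given with a fit that ended their call.

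Among the 28 lower genes were several that neurons use at synapses or secrete. Syt16, an atypical member of the synaptotagmin family of vesicle-trafficking proteins, stood at 7.96, 8.27, 7.77, 7.64 and 8.64 FPKM in F_C57 and at 5.35, 5.12, 5.04, 5.91 and 5.21 FPKM in F_KO. In males it stood at 8.10, 8.98, 8.74, 8.92 and 9.10 FPKM in M_C57 and at 6.01, 5.71, 5.78, 5.29 and 7.46 FPKM in M_KO. The groups did not overlap in either sex, and M_KO 5 was the KO library nearest to C57. The difference was -0.50 (SE 0.04, limma adjusted p = 2.19e-06), with -0.52 in F and -0.48 in M.

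Klk8, which encodes neuropsin, a secreted serine protease of hippocampal pyramidal neurons involved in synaptic plasticity, was at 5.39, 6.59, 5.52, 5.98 and 6.52 FPKM in F_C57 and at 4.64, 4.97, 4.31, 3.49 and 3.84 FPKM in F_KO. In M_C57 it was at 5.97, 5.15, 5.04, 6.46 and 6.54 FPKM, and in M_KO between 3.97 and 4.35 FPKM. KO libraries were below all C57 libraries of their sex, by -0.42 in F and -0.42 in M (shared adjusted p = 0.000466). A pair of serine protease inhibitors fell with it. Serpina3n, made mainly by astrocytes and known to rise in reactive ones, went from 22.3 ± 2.17 to 16.2 ± 1.06 FPKM in females and from 21.8 ± 1.26 to 15.2 ± 1.49 FPKM in males (SD, n = 5 each; difference -0.46, adjusted p = 2.4e-05). Serpinb8, an intracellular inhibitor at a low level, had 60.8% of its C57 mean in F_KO and 61.3% in M_KO (-0.30, adjusted p = 0.00142). Of the 13 tested serpins these 2 fell and Serpinh1 rose, beside 2.53% of all tested genes called. The median over the 13 was 0.0076, beside 0.0017 over all tested genes.

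Neurod6, a transcription factor of excitatory forebrain neurons, was at 133, 134, 138, 151 and 138 FPKM in F_C57 and between 115 and 121 FPKM in F_KO. It lay between 138 and 150.1 FPKM in M_C57 and between 129.9 and 133 FPKM in M_KO. The change was modest and the groups did not overlap in either sex (-0.19, adjusted p = 0.000344). Nrxn3, a presynaptic neurexin that pairs with postsynaptic neuroligins and LRRTM proteins, was at 20.4 ± 0.71 against 17.9 ± 0.824 FPKM in females and at 21.8 ± 0.653 against 19.6 ± 0.791 FPKM in males (-0.16, adjusted p = 0.00239). Here too no KO library reached a C57 library of its sex. Pak1, a kinase that shapes the actin of dendritic spines, fell from 60.2 ± 2.32 to 55.3 ± 1.38 FPKM in F and from 64.1 ± 3.15 to 57.5 ± 1.92 FPKM in M (-0.14, adjusted p = 0.00766), again with no overlap in either sex.

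Other neuronal genes of the 28 fell as well. Fam19a1, a secreted chemokine-like protein of the brain, had 84.2% of its C57 level in F_KO and 86.5% in M_KO. Olfm3, an olfactomedin that binds AMPA receptor complexes, had 78.6% and 80.9%. Brinp1, a nervous-system protein that slows the cell cycle, had 88.8% and 89.1%, and Gabra4, the alpha-4 subunit of GABA-A receptors, had 82.3% and 91.3%. Adjusted p-values of these 4 lay between 0.00134 and 0.00766. Otof, the otoferlin gene of vesicle fusion, was low in all groups, with group means from 0.382 to 0.660 FPKM, and lower in KO (adjusted p = 0.00678). Filip1, which governs filamin A in migrating neurons, fell by 0.50 in females and 0.18 in males (adjusted p = 0.00766). The male minus female contrast did not call this gap (adjusted p = 0.353).

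The remaining lower genes of that set had no common role. Phyh, the peroxisomal enzyme of phytanic acid breakdown, went from 45.3 ± 1.78 to 38.5 ± 2.86 FPKM in F and from 46.2 ± 1.70 to 39.9 ± 1.05 FPKM in M (adjusted p = 0.000973). Krt9, a keratin with no known place in hippocampal neurons, had 61.5% of its C57 level in F_KO and 68.6% in M_KO (adjusted p = 0.000344). Alox8, a lipoxygenase, had 70.2% and 71.4%. Ccnd1, which encodes cyclin D1, had 84.7% and 74.4% (adjusted p = 0.0088). Zfp991, a zinc finger gene, had 54.3% in F_KO and 47.7% in M_KO (-0.54, adjusted p = 0.00227). Others of the set were Rhobtb3, Pkp4, Tmem184c, Nol4, Tpd52l1, Btbd1, Ankrd50 and Atmin.

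Of the 11 higher genes, Col1a1, a chain of fibrillar collagen made by fibroblasts of the meninges and vessels, had the largest difference on the log2(FPKM + 1) scale, which understates changes of low genes. It was at 0.767, 1.15, 1.19, 1.17 and 0.978 FPKM in F_C57 and at 1.45, 2.24, 1.72, 2.72 and 1.85 FPKM in F_KO. In M_C57 it was at 0.518, 0.639, 0.585, 0.689 and 0.637 FPKM and in M_KO at 1.21, 1.02, 1.13, 0.932 and 1.03 FPKM. KO libraries were above all C57 libraries of their sex, at 190.0% of the C57 mean in F and 173% in M (0.45, adjusted p = 0.00129). Its call held without the Ttr libraries (adjusted p = 0.00546) and without the Prl libraries (adjusted p = 0.00434). It is a meningeal marker, and of 12 tested meningeal fibroblast markers it alone was called, beside 1.01% of all tested genes called higher. Of the 12 markers, 10 were above 0 in both sexes, and the median of the 12 was 0.265 in F and 0.079 in M. The summed level of the 12 ran from 26.6 to 42.6 FPKM in F_C57, 29.7 to 58.1 in F_KO, 23.1 to 33.1 in M_C57 and 24.9 to 37.6 in M_KO, and their part in the Col1a1 difference was not tested.

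Ncan, which encodes neurocan, a chondroitin sulfate proteoglycan of perineuronal nets, rose from 25.1 ± 0.931 to 29.2 ± 0.434 FPKM in females and from 25.0 ± 1.40 to 27.5 ± 0.574 FPKM in males (0.17, adjusted p = 0.00153). F_KO libraries were all above F_C57, and in males 1 C57 library (27.1 FPKM) reached into the KO range of 26.8 to 28.3 FPKM. Fads1, a desaturase that makes arachidonic acid, rose to 112% of C57 in F and 109% in M (adjusted p = 0.00266) with no overlap in either sex. Zfand2a, an arsenite- and heat-induced partner of the proteasome, rose to 117% and 112% (adjusted p = 0.0013), likewise without overlap. Pigs, a subunit of the GPI transamidase, rose to 115% in both sexes (adjusted p = 0.00164). Tpcn1, an endolysosomal channel, rose to 121% and 115%, and the cell adhesion gene Cd99l2 to 119% and 111%. Tekt4, a ciliary tektin, was low in all groups and rose to 235% and 184% (adjusted p = 0.00846). Of the 11 tested ependymal markers Tekt4 was the only one past the threshold, beside 1.01% of all tested genes called higher. The list's median was 0.30 in F and 0.068 in M. Ube2z, Slc35e1 and Islr2 complete the set.

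**Figure D2:**
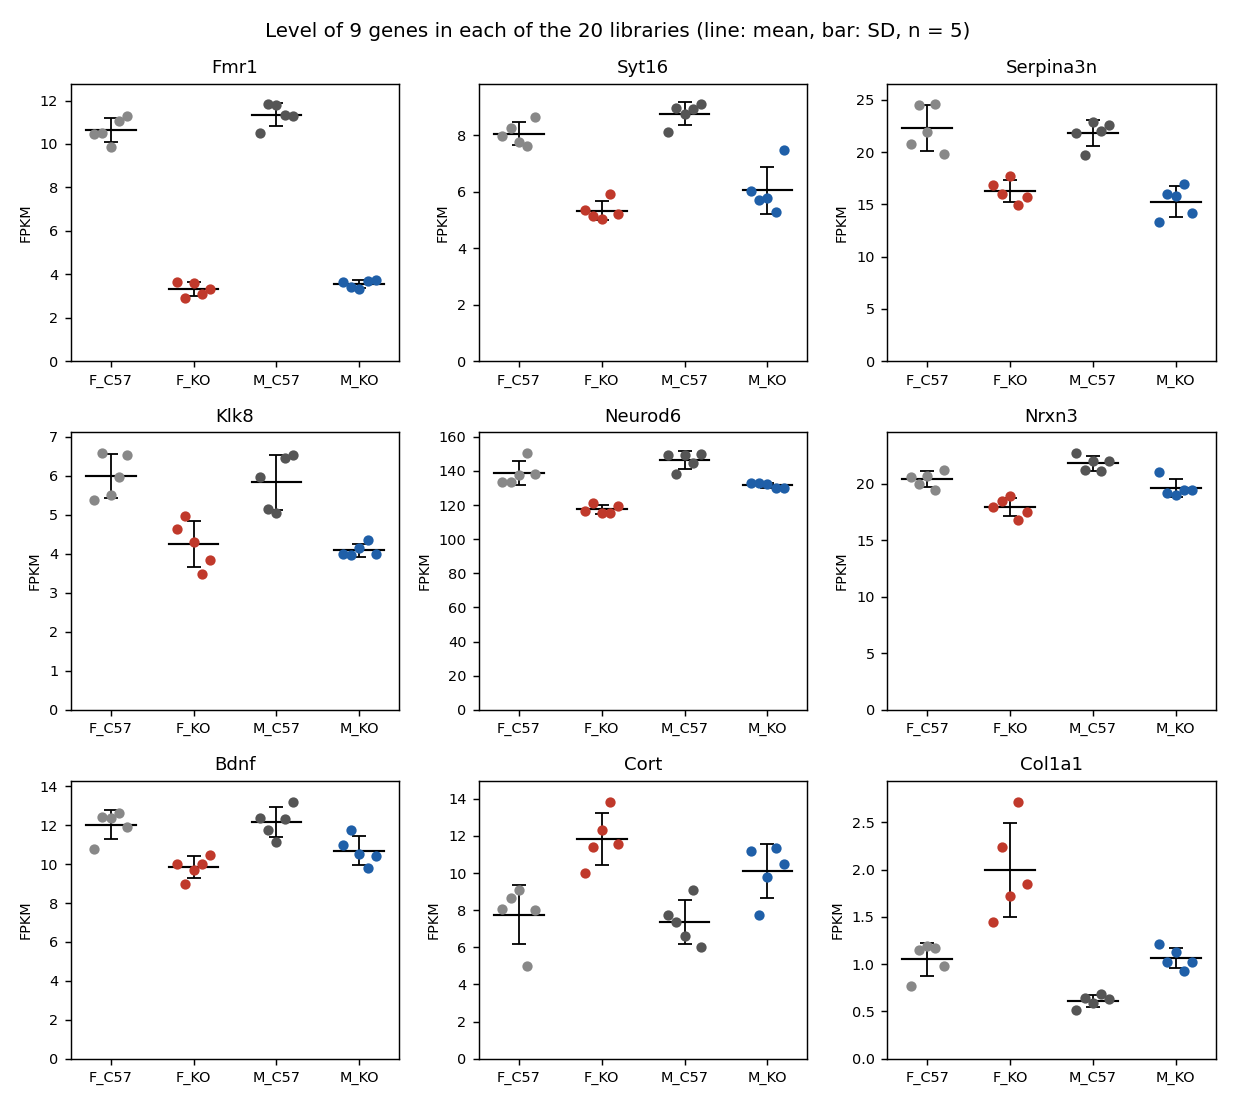
FPKM of 9 genes in every library of the 4 groups, with a line at the group mean and a bar of 1 SD (n = 5). Fmr1, Syt16, Serpina3n, Klk8, Neurod6 and Nrxn3 are lower in every KO library than in every C57 library of the same sex, Col1a1 is higher in every KO library, and Bdnf and Cort overlap in males.

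Among genes that neurons release or induce with activity, Bdnf, the growth factor of activity-dependent plasticity, was at 10.8, 12.4, 12.4, 12.6 and 11.9 FPKM in F_C57 and between 8.97 and 10.5 FPKM in F_KO. In M_C57 it lay between 11.1 and 13.2 FPKM and in M_KO between 9.81 and 11.8 FPKM, so males overlapped. It fell by 0.22 (adjusted p = 0.00641), and without the Prl libraries its adjusted p was 0.058. Ptgs2, the inducible cyclooxygenase of excitatory neurons, had 74.0% of its C57 level in F_KO and 89.5% in M_KO (-0.26, adjusted p = 0.011), with 0.0597 without the Ttr libraries and 0.0857 without the Prl libraries. These were the only 2 of 35 immediate early and activity genes called, both lower, beside 1.52% of all tested genes. Of the 35, 13 were above 0 in both sexes and 7 below 0 in both. The list's median was 0.13 in F and -0.0024 in M, beside 0.0052 and -0.0015 over all tested genes. Of 14 glucocorticoid targets none was called and 11 were above 0 in both sexes (median 0.22 in F and 0.061 in M). At an unadjusted p under 0.05 were 6 of the 14 (limma), beside 17.5% of all tested genes.

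Neuropeptides of interneurons moved in both directions. Cort, which encodes cortistatin, a peptide of inhibitory neurons related to somatostatin, was at 8.06, 8.66, 9.07, 5.01 and 8.02 FPKM in F_C57 and between 10.01 and 13.8 FPKM in F_KO. In M_C57 it lay between 6.04 and 9.11 FPKM and in M_KO between 7.75 and 11.3 FPKM. F_KO libraries all exceeded F_C57 libraries, and in males M_KO 2, the lowest KO library, fell within the C57 range. The difference was 0.49 (adjusted p = 0.0088), and 0.0814 was the adjusted p without the Prl libraries. Penk, the precursor of enkephalins, fell from 14.1 ± 1.61 to 11.6 ± 1.32 FPKM in females and from 15.6 ± 1.76 to 11.9 ± 1.11 FPKM in males (-0.31, adjusted p = 0.0115), with an adjusted p of 0.0737 without the Prl libraries. For Penk the groups overlapped in both sexes. Cort and Penk were the only 2 of the 22 interneuron genes past the threshold, beside 2.53% of all tested genes. The list's median was 0.040. Gng4, a G protein gamma subunit, rose to 134% and 121% with no overlap in either sex (adjusted p = 0.00942). Without the Prl libraries its adjusted p was 0.0737.

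In receptors and their scaffolds, all called members were lower in KO, beside 1.52% of all tested genes. GABA receptors and synthesis had 2 of 21 called (9 at an unadjusted p under 0.05, beside 17.5% of all tested genes), Gabra4 and Gabra5, the alpha-5 subunit that hippocampal pyramidal cells use for tonic inhibition. Gabra5 went from 73.9 ± 8.45 to 60.6 ± 5.34 FPKM in F and from 76.5 ± 7.33 to 64.9 ± 3.85 FPKM in M (-0.26, adjusted p = 0.0177). Its adjusted p was 0.105 without the Ttr libraries and 0.0754 without the Prl libraries. Glutamate receptors had 1 of 24 called (4 at an unadjusted p under 0.05), the NMDA receptor subunit Grin2a, with 84.9% of its C57 level in F_KO and 92.7% in M_KO (adjusted p = 0.0239, and 0.167 and 0.172 without the Ttr and the Prl libraries). Postsynaptic scaffolds and adhesion genes had 3 of 28 called (7 at an unadjusted p under 0.05): Nrxn3, the neurexin ligand Lrrtm2 (-0.12) and the scaffold Cnksr2 (-0.13). The Lrrtm2 call ended in 11 of the 20 fits without 1 library and the Cnksr2 call in 16, with adjusted p-values up to 0.0649 without F_KO 2 and 0.0818 without F_KO 3. Neither call held without the Ttr libraries (limma adjusted p = 0.101 and 0.239) or the Prl libraries (0.242 and 0.284). Medians of these 3 lists lay between -0.031 and -0.0067.

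Voltage-gated and leak potassium channels had 4 of 51 called, again all lower, beside 1.52% of all tested genes. Kcnv1, a silent subunit that modifies Kv2 channels, was at 12.7 ± 0.71 against 10.7 ± 0.849 FPKM in F and at 13.1 ± 0.327 against 12.0 ± 0.457 FPKM in M, with no overlap in either sex (-0.17, adjusted p = 0.0138). Kcna4, an A-type channel, fell to 69.7% in F and was at 91.5% in M (adjusted p = 0.0209), and the leak channel Kcnk2 was at 87.4% and 89.6% (adjusted p = 0.0269). Kcnq3, a subunit of the M-current, was at 82.2% and 93.8% (adjusted p = 0.0423). The median of the list was -0.011, and 20 of the 51 were below and 15 above 0 in both sexes. None of these 4 was past the threshold without the Prl libraries (adjusted p from 0.102 to 0.229). The Kcnk2 call also ended without M_KO 3 (adjusted p = 0.052), and the Kcnq3 call in 15 of the 20 fits without 1 library (up to 0.0755, without F_KO 3). Calcium, sodium and HCN channels had 0 of 29 called (limma, 4 at an unadjusted p under 0.05).

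On the presynaptic side, the vesicle release list held 2 higher calls of 30 tested, beside 1.01% of all tested genes (median 0.020, 5 at an unadjusted p under 0.05). Syp, synaptophysin, rose from 209.7 ± 7.25 to 239 ± 4.88 FPKM in females and was at 207 ± 10.7 and 214 ± 9.04 FPKM in males (0.12, adjusted p = 0.0355). Vamp2, the vesicle SNARE synaptobrevin, was at 217 ± 9.68 and 239 ± 9.10 FPKM in females and at 214 ± 7.19 and 222 ± 5.38 FPKM in males (0.10, adjusted p = 0.0447). In males alone neither had an unadjusted p under 0.05. Their calls ended in 12 and 14 of the 20 fits without 1 library, with adjusted p-values up to 0.0714 and 0.0873 without F_KO 3. Neither call held without the Ttr libraries (limma adjusted p = 0.118 and 0.156) or the Prl libraries (0.257 and 0.299). Of 19 synaptotagmins and relatives, Syt16 and Sytl2 fell, beside 1.52% of all tested genes, and 17 were not called (median 0.019). The Sytl2 call ended in 11 of the 20 fits without 1 library (up to 0.0722, without F_KO 3). It also ended without the Ttr libraries (limma adjusted p = 0.0686) and without the Prl libraries (0.058).

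Of 54 tested synaptic and neuronal mRNAs known to be bound by FMRP, 4 were called and all were lower, beside 1.52% of all tested genes: Nrxn3, Grin2a, Kcnq3 and Map1b, the microtubule-binding protein that is a classic FMRP target. Map1b was at 98.9 ± 3.43 against 90.4 ± 3.17 FPKM in F and at 102 ± 6.50 against 93.1 ± 5.62 FPKM in M (-0.13, adjusted p = 0.0324). Its call ended in 10 of the 20 fits without 1 library (up to 0.0581, without F_C57 5). It also ended without the Ttr libraries (limma adjusted p = 0.126) and without the Prl libraries (0.135). After removal of the GC trend neither Map1b (limma adjusted p = 0.0532) nor Kcnq3 (0.0679) was past the threshold. Of the 54, 11 had an unadjusted p under 0.05 (limma), beside 17.5% of all tested genes. The list's median was -0.058 in F and 0.031 in M, beside 0.0052 and -0.0015 over all tested genes, with 20 members below and 13 above 0 in both sexes. Among FMRP's paralogs and partners 2 of 18 were called, both lower, beside 1.52% of all tested genes. These were Fmr1 itself and the nucleolar protein gene Ncl (-0.088). The Ncl call ended in 16 of the 20 fits without 1 library (up to 0.0852, without F_KO 3). Without the Ttr libraries the adjusted p of Ncl was 0.0943 and without the Prl libraries 0.28 (limma). Fxr1 and Fxr2, the paralogs, were at 0.0029 and 0.037 (adjusted p = 0.976 and 0.524). In the list of mTOR and translation genes 1 of 35 was called, beside 1.01% of all tested genes called higher. This was the translation repressor Eif4ebp2, at 112% and 105% of C57 (adjusted p = 0.0269). That call ended without F_KO 2, F_KO 3 or F_KO 4 (up to 0.0523, without F_KO 2). It also ended without the Ttr libraries (limma adjusted p = 0.126) and without the Prl libraries (0.219).

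The lists of ribosomal protein and oxidative phosphorylation genes held 1 call between them, beside 2.53% of all tested genes called. Of 82 cytosolic ribosomal protein genes none was called (limma, 15 at an unadjusted p under 0.05), 56 were above and 3 below 0 in both sexes, and the median was 0.064 in F and 0.061 in M. Of 79 nuclear oxidative phosphorylation genes 1 was called, the ATP synthase subunit gene Atp5g1 (0.19, adjusted p = 0.0211, and 0.115 and 0.161 without the Ttr and the Prl libraries). Of the 79, 49 were above and 6 below 0 in both sexes. Over all tested genes, 57.3% had the same sign in both sexes, in either direction. For ribosomal proteins the number above 0 in both sexes ran from 24 to 63 when single libraries were left out. The 13 mitochondrially encoded genes had a median of -0.0014 and no call (limma, 2 at an unadjusted p under 0.05).

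Secretory pathway and matrix genes held 4 higher calls and 1 lower, beside 1.01% of all tested genes higher and 1.52% lower. In ER chaperones and protein folding, 2 of 22 were called: Calr, calreticulin, rose to 118% in F and was at 104% in M (adjusted p = 0.0209), and Serpinh1, the collagen chaperone, to 157% and 109% (adjusted p = 0.0473). In males neither had an unadjusted p under 0.05, and the medians of the list were 0.195 in F and -0.0076 in M. Neither call held without the Ttr libraries (0.105 and 0.191) or the Prl libraries (0.158 and 0.314), and that of Serpinh1 ended in 15 of the 20 fits without 1 library (up to 0.0879, without F_KO 3). In collagens and matrix, which also holds Serpinh1, 3 of 37 rose, with Col1a1 and the tenascin Tnxb (0.20, adjusted p = 0.0265), and 1 fell, the fibrillar collagen Col11a1 (-0.21, adjusted p = 0.0321). Without the Prl libraries Tnxb was at 0.0657 and Col11a1 at 0.212, and the Col11a1 call ended without any of F_KO 2, F_KO 3, F_KO 4, M_C57 3 or M_KO 3 (up to 0.0627, without F_KO 2).

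Markers of mature oligodendrocytes, the cells that make myelin, lay on the lower side in KO. All 16 tested members were below 0 in both sexes, with a median of -0.181 in F and -0.185 in M. Of the 16, 3 were called, all lower, beside 1.52% of all tested genes. Over all tested genes, 57.3% had the same sign in both sexes, in either direction. Opalin, a membrane protein of myelin, was at 17.4, 15.9, 15.8, 23.2 and 12.5 FPKM in F_C57 and between 10.4 and 12.2 FPKM in F_KO. In males it lay between 15.9 and 18.7 FPKM in M_C57 and between 13.9 and 16.6 FPKM in M_KO. F_KO was below all of F_C57 and the male groups overlapped (-0.34, adjusted p = 0.0209). Fa2h, which hydroxylates myelin lipids, fell by 0.24 (adjusted p = 0.0423), and Ugt8a, which makes galactocerebroside, by 0.27 (adjusted p = 0.0482). Mbp, myelin basic protein, was at -0.073 and did not pass.

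The summed level of the 16 markers ran from 659 to 1115 FPKM in F_C57, 719 to 885 in F_KO, 870 to 1074 in M_C57 and 783 to 949.9 in M_KO, so the groups overlapped in both sexes. Without the 4 Ttr libraries the female median was -0.035 and the male median -0.23, with 10 of 16 below 0 in both sexes. Without F_C57 4 alone 14 were below 0 in both sexes. No member stayed called without the Prl libraries, where the shared median was -0.205. The calls of Fa2h and Ugt8a ended in 17 and 16 of the 20 fits without 1 library (up to 0.0743 and 0.0812, without F_C57 4). Oligodendrocyte precursors had 0 of 11 called (limma, 3 at an unadjusted p under 0.05) and a median of -0.045.

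Other cell types showed few calls. Over all tested genes, 2.53% were called and 17.5% had an unadjusted p under 0.05 (limma). Of 14 tested astrocyte markers, 9 were above 0 in both sexes and 7 had an unadjusted p under 0.05, with a median of 0.062 in F and 0.078 in M. The 17 tested microglial markers had a median of -0.0081, with 2 at an unadjusted p under 0.05. Reactive astrocyte genes had 1 of 19, Serpina3n. Dentate granule cells had 1 of 13, the cation channel Trpc6 (-0.17, adjusted p = 0.0386). Its call ended in 13 of the 20 fits without 1 library (up to 0.0745, without F_KO 3). It also ended without the Ttr libraries (limma adjusted p = 0.179) and without the Prl libraries (0.22). Of the 13, 7 had an unadjusted p under 0.05 (limma), and 7 were below and 0 above 0 in both sexes. The list's median was -0.22 in F and -0.0051 in M. CA1 pyramidal cells had 1 of 9, Nov (0.20), and CA2 and CA3 cells 1 of 16, the imprinted gene Nnat (0.37). Both calls ended in 12 of the 20 fits without 1 library (up to 0.0801 and 0.0828, without F_KO 3). Neither held without the Ttr libraries (limma adjusted p = 0.15 for each) or the Prl libraries (0.269 and 0.289).

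Choroid plexus markers had 0 of 11 called (limma, 0 at an unadjusted p under 0.05) although all 11 were above 0 in both sexes, with a median of 0.64 in F and 0.11 in M. Without the Ttr libraries none of the 11 was above 0 in both. Endothelial cells (15 tested), pericytes and smooth muscle (12) and erythrocytes (7) had no call, with medians of 0.047, 0.11 and 0.28. They held 4, 5 and 5 members at an unadjusted p under 0.05 (limma), beside 17.5% of all tested genes. No call was found either in heat shock proteins (17 tested), cholesterol synthesis (23), the endocannabinoid system (9), interferon response and MHC class I (24), dentate neurogenesis and mitosis (9), thyroid hormone targets (8), histone genes (30) or the pituitary hormones (2, Gh and Pomc). These 8 lists held between 0 and 5 members at an unadjusted p under 0.05.

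**Figure D3:**
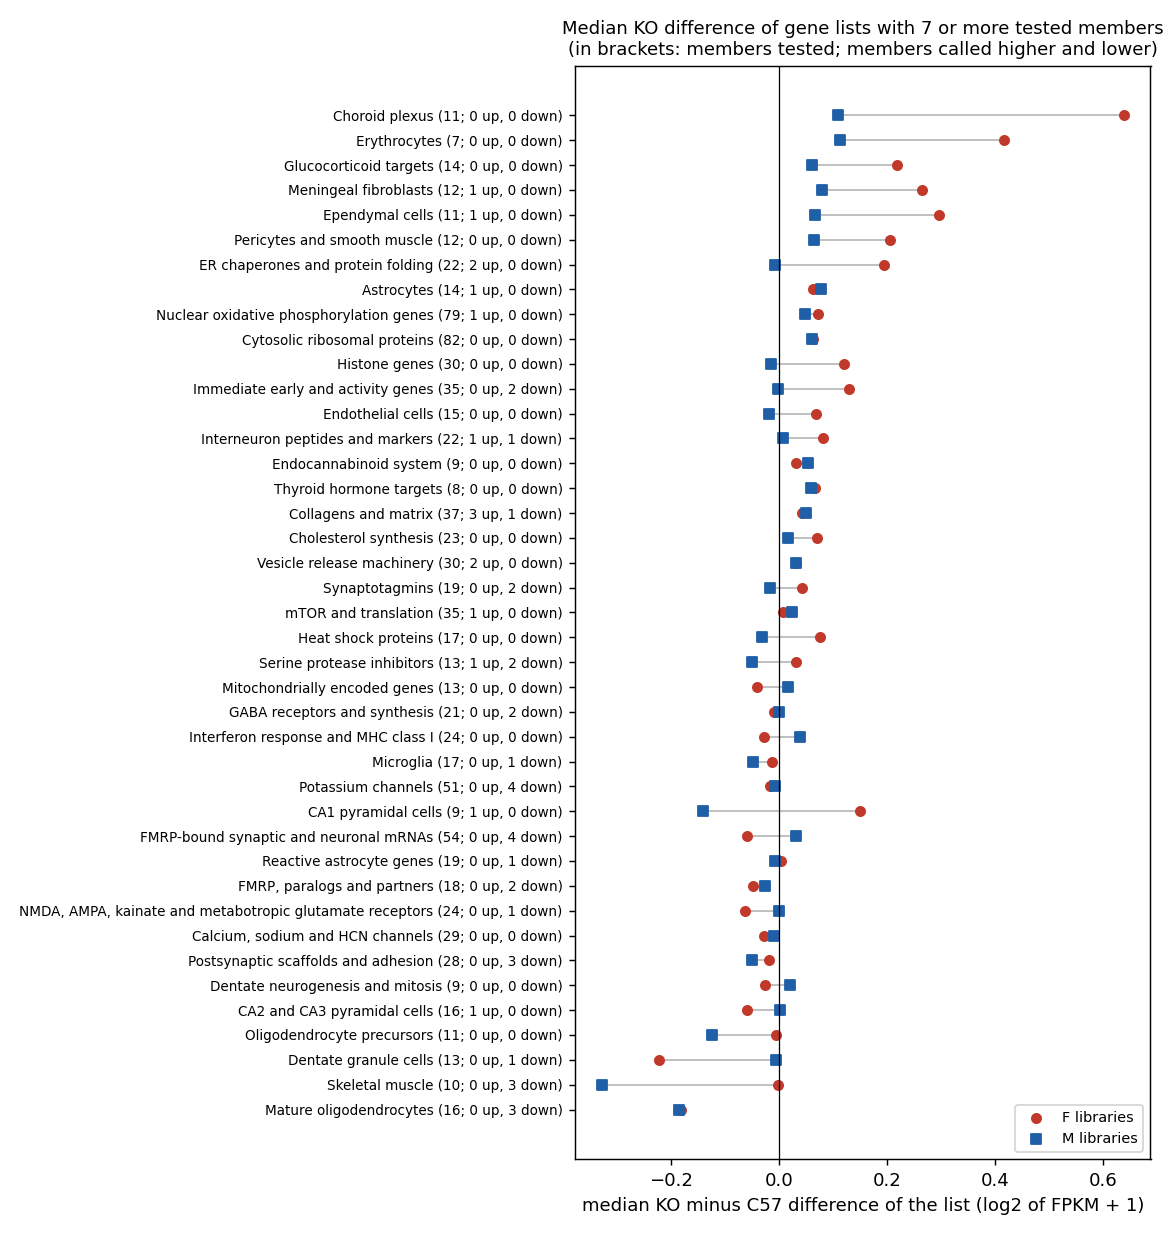
Median KO minus C57 difference, on the log2(FPKM + 1) scale, of each gene list with 7 or more tested members in F (circles) and M (squares) libraries, with the members tested and called in brackets. Mature oligodendrocytes lie at -0.181 in F and -0.185 in M and ribosomal proteins at 0.06 in both, while choroid plexus, ER chaperones and dentate granule cells differ between F and M.

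Of the 331 genes, 19 lay in 2 short stretches of chromosome where neighbours moved together. In the first, on mm10 chromosome 12 from 55080262 to 55263836, all 5 tested genes were lower: Srp54a (listed at 55080262 and again, under another identifier, at 55155104), Srp54b, Fam177a and 1700047I17Rik2. Srp54 proteins are the subunit of the signal recognition particle that binds signal peptides. RefSeq names the copies at 55155104 and 55230168 differently from the files, and reads of near-identical copies may have been shared among them by the authors' counting. Srp54b was at 29.8, 28.8, 31.6, 29.5 and 29.8 FPKM in F_C57 and at 25.2, 25.1, 20.1, 28.0 and 20.2 FPKM in F_KO. It was at 32.4, 32.4, 31.0, 32.8 and 31.6 FPKM in M_C57 and at 34.1, 23.8, 26.2, 21.3 and 25.3 FPKM in M_KO.

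The C57 libraries sat close together and the KO libraries spread out, with F_KO 4 just under the C57 level and M_KO 1 above it. Fam177a had the same pattern, at 5.83, 6.12, 4.12, 7.99 and 4.10 FPKM in F_KO and at 9.26, 4.57, 6.24, 4.13 and 6.17 FPKM in M_KO. The sum over the 5 genes had an SD of 1.23 FPKM in F_C57 and 1.52 in M_C57 against 12.4 in F_KO and 15.9 in M_KO. Adjusted p-values of the 5 genes lay between 0.0158 and 0.0222. They were between 0.0458 and 0.054 without the Ttr libraries, and with Ttr and Prl levels as covariates between 0.0666 and 0.0743, so that no call remained.

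In the second stretch, on chromosome 2 from 175321955 to 177206421, 14 of 23 tested genes were called and all 14 were higher. They belong to a cluster of near-identical zinc finger genes, so that values of single members are uncertain where reads fit several copies. Zfp973 was at 2.85, 2.37, 2.71, 2.83 and 3.10 FPKM in F_C57 and at 4.46, 4.62, 4.70, 2.54 and 4.12 FPKM in F_KO. It was at 2.85, 3.45, 3.07, 3.48 and 4.38 FPKM in M_C57 and at 6.37, 5.59, 5.40, 4.04 and 3.87 FPKM in M_KO. F_KO 4 stood at the C57 level, and M_C57 5 was above M_KO 4 and M_KO 5. The summed level of the 14 genes was 80.1 ± 3.54 FPKM in F_C57, 117 ± 26.7 in F_KO, 96.3 ± 14.9 in M_C57 and 137 ± 23.7 in M_KO. The 14 adjusted p-values lay between 0.0116 and 0.0342. The call of Zfp968 ended in 6 and that of Zfp965 in 10 of the 20 fits without 1 library (up to 0.0572, without F_KO 3, and 0.0667, without F_KO 2).

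Because these genes moved together, the sequence before their start sites was compared. RefSeq's table (GRCm38.p6, the sequence of mm10) held exactly 1 window of the same symbol within 300 bases of the annotated start for 10 of the 14 genes. Gm2007, whose window lay farther away, and Gm4631, which has several windows, were not used, and Gm14296 and Gm11007 were not matched. Of the 10 genes, Gm4724, Gm2026, Gm14434 and Gm14308 had identical letters over the 250 bases before the start. Every one of the 10 held the same run of 54 bases, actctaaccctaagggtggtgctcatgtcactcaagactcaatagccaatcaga. Shown are 104 bases around that run for 5 of them, 5′ to 3′, with bases that differ from Zfp973 in capitals, at chr2:176670399-176670502 (plus) for Zfp973, chr2:175372313-175372416 (plus) for Zfp968, chr2:176708164-176708267 (plus) for Gm14305, chr2:176636397-176636500 (minus) for Gm14308 and chr2:177206497-177206600 (minus) for Gm14410.
Zfp973: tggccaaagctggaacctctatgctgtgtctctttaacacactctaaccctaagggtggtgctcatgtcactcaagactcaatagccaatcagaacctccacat
Zfp968: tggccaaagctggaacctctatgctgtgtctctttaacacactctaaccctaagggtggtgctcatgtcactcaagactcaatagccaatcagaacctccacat
Gm14305: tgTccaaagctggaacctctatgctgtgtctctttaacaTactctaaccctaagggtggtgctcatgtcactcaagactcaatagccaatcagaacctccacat
Gm14308: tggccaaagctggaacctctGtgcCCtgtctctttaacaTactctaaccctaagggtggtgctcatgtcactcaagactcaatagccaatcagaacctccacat
Gm14410: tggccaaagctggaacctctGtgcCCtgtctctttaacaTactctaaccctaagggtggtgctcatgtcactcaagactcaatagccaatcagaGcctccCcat
Zfp968 did not differ from Zfp973 here, Gm14305 differed at 2 bases, Gm14308 at 4 and Gm14410 at 6. On either strand, the run was found in 28 of the table's 32851 windows of 250 bases (0.0852%), all of them on chromosome 2 and belonging to 26 gene symbols. All 26 were tested, 13 were called and all 13 were higher, beside 1.01% of all tested genes, and the other 13 had differences from 0.046 to 0.39. The run was taken from 10 genes that were already called and higher, so this count was largely set by that choice. Whether the run has a part in the KO difference was not tested.

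Some of the largest differences came from genes whose libraries fell at separate levels within a group. Laptm4b, a lysosomal membrane protein, was at 16.6, 16.5, 28.1, 16.7 and 14.996 FPKM in F_C57 and at 18.8, 37.5, 35.3, 35.7 and 36.0 FPKM in F_KO. It was at 15.7, 31.1, 13.6, 16.5 and 16.4 FPKM in M_C57 and at 30.6, 32.7, 16.3, 33.3 and 34.2 FPKM in M_KO. In each group 4 libraries lay close together and the fifth lay at or toward the level of the other genotype (0.71, adjusted p = 0.0253, and 0.0506 without F_KO 2). The Laptm4b call also ended without the Ttr libraries (limma adjusted p = 0.159) and without the Prl libraries (0.212).

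Tprkb, a subunit of the tRNA-modifying KEOPS complex, was at 12.6, 13.2, 9.26, 14.4 and 12.7 FPKM in F_C57 and between 4.68 and 6.95 FPKM in F_KO. In M_C57 it was at 13.9, 12.1, 11.1, 14.4 and 6.74 FPKM, and in M_KO at 6.14, 13.1, 5.56, 6.29 and 12.3 FPKM. The female groups were apart, and in males 1 C57 library was low and 2 KO libraries high (-0.73, adjusted p = 0.0222, and 0.164 without the Prl libraries). Pls3, an actin-bundling plastin on the X chromosome, was at 71.9, 46.5, 41.5, 71.0 and 75.8 FPKM in F_C57 and at 76.3, 51.8, 71.7, 49.2 and 46.1 FPKM in M_C57. It lay between 36.7 and 54.3 FPKM in F_KO and between 35.7 and 48.6 FPKM in M_KO. Both C57 groups thus held a high and a low set of libraries (-0.50, adjusted p = 0.0265, and 0.0524 without F_KO 2). Pls3 also lost its call without M_KO 3, without the Ttr libraries (limma adjusted p = 0.0536) and without the Prl libraries (0.0919). It kept the call with both levels as covariates (0.0206).

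**Figure D4:**
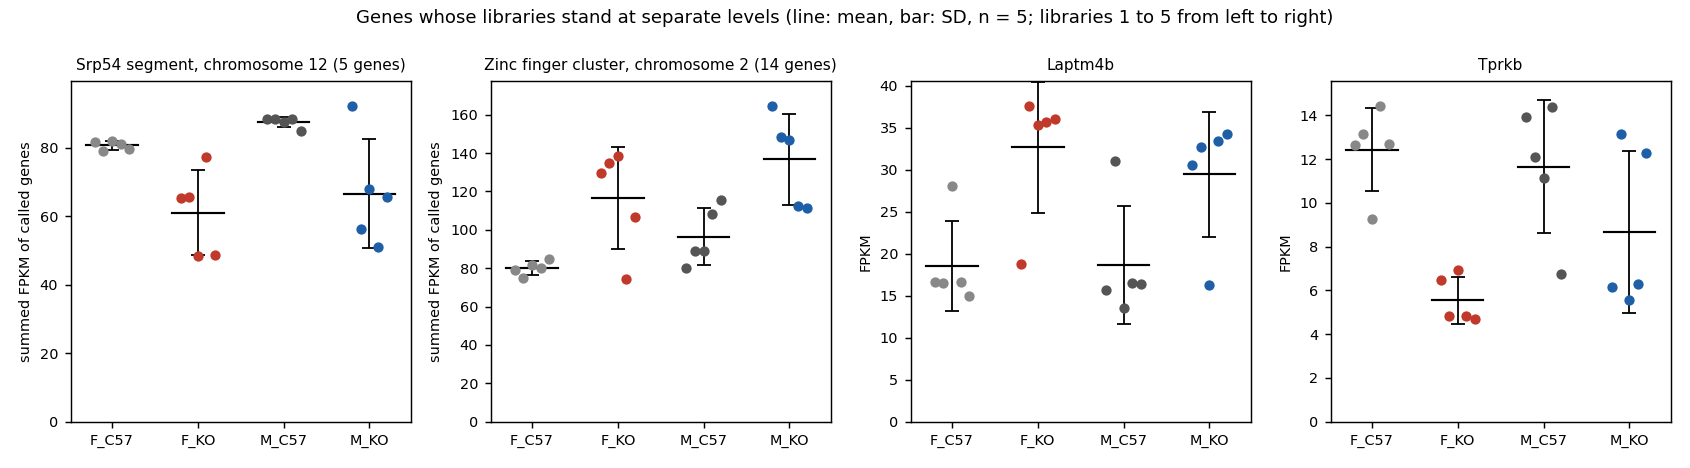
Summed FPKM of the 5 called genes of the chromosome 12 stretch and of the 14 called genes of the chromosome 2 stretch, and FPKM of Laptm4b and Tprkb, in each library (libraries 1 to 5 from left to right in each group; line at the mean, bar of 1 SD, n = 5). KO libraries spread over several levels in both stretches, and Laptm4b has 1 library in each group at or toward the level of the other genotype.

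On the X chromosome around Fmr1, 31 other genes within 5 Mb were tested and 4 were called, in both directions, beside 2.53% of all tested genes. Cd99l2 (0.18, adjusted p = 0.00378) and Pnck, a calmodulin-dependent kinase (0.27, adjusted p = 0.0265), rose. Pnma3 (-0.21, adjusted p = 0.0093) and Slitrk2, a synaptic adhesion protein (-0.14, adjusted p = 0.0423), fell. The median of the 31 was 0.0015. Without the Prl libraries Cd99l2 alone of the 4 was past the threshold (adjusted p = 0.0189, against 0.0741 for Pnma3, 0.131 for Pnck and 0.218 for Slitrk2), and the Slitrk2 call ended in 13 of the 20 fits without 1 library (up to 0.0801, without F_KO 3).

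Further members with large differences were named by their size. Of the higher ones, Mest, an imprinted gene, was at 132% of C57 in F_KO and 121% in M_KO, the kinase inhibitor Camk2n2 at 128% and 114%, the mitochondrial glutamate carrier Slc25a18 at 126% and 114%, and Impdh1, of guanine nucleotide synthesis, at 116% and 119.9%. Impdh1 passed without the Ttr and the Prl libraries (adjusted p = 0.0279 and 0.043), and the other 3 did not pass without either set (0.0686 to 0.175). Marveld1 and Tmem214, at 119% to 135% of C57, lost their calls in 15 and 14 of the 20 fits without 1 library (up to 0.0767, without F_KO 2, and 0.0866, without F_C57 4). Neither passed without the Ttr libraries (limma adjusted p = 0.142 and 0.143) or the Prl libraries (0.259 and 0.212). Of the lower ones, Jsrp1 was at 66.2% and 71.3%. Carf, a calcium-responsive transcription factor, was at 62.7% and 52.8%, and Ahi1, a ciliary protein, at 77.8% and 82.5%. Jsrp1 had an adjusted p of 0.0986 without the Ttr libraries, and Carf and Ahi1 lost their calls in 10 of the 20 fits without 1 library each (up to 0.064, without F_KO 3, and 0.0672, without F_KO 2). Without the Prl libraries Jsrp1, Carf and Ahi1 were at 0.0737, 0.154 and 0.212 (limma adjusted p).

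A dependence of the KO difference on sex was called for few of these genes. The contrast of the male minus the female difference was past the threshold for 6 of all tested genes (0.0455%) and for 3 of the 333 shared calls, all 3 of them skeletal muscle genes. At an unadjusted p under 0.05 (limma) it held 44 of the 333. A gene that the contrast did not call may still differ in size between the sexes. Ckm, muscle creatine kinase, was listed at 0 in all F_C57 libraries, in 4 of the 5 F_KO libraries and in all M_KO libraries, and at 1.05, 0.556, 0.510, 0.819 and 0.535 FPKM in M_C57. Atp2a1, the calcium pump of fast muscle, was at 0.921 ± 0.297 FPKM in M_C57 and at no more than 0.0738 FPKM in M_KO, and Myh4, a fast myosin, at 0.875 ± 0.287 against 0.0901 ± 0.0180 FPKM. Outside M_C57 no library held more than 0.13 FPKM of any of the 3, and the shared difference of these genes is that of the male libraries. Of the 10 tested skeletal muscle genes these 3 were called, all lower, beside 1.52% of all tested genes. Their shared calls ended in 8 (Atp2a1), 12 (Ckm) and 18 (Myh4) of the 20 fits without 1 library (up to 0.0619, 0.0742 and 0.0815).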

How the data were processed

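Hippocampal RNA was measured in 20 libraries, 5 in each of 4 groups, made per the labels' protocols from TRIzol-extracted total RNA (1.3 µg each). The deposited values are FPKM per gene, computed by the authors, with HISAT2, StringTie, FastQC and mm10 named in the submitters' processing notes. No read counts were used, so the depth behind each value is unknown and no counting interval is given. Each library lists 13256 genes, with total FPKM of 230631 to 244976, 12766 to 12899 genes at 0.5 FPKM or more and 18 to 28 genes listed at 0.

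Genes with 0.5 FPKM or more in at least 5 libraries were put on the log2(FPKM + 1) scale, which understates changes of low genes, and fitted with limma 3.58.1 in R 4.3.3 (trended variance). The model had sex (F or M) and genotype as additive terms, and p-values were adjusted by Benjamini-Hochberg over all 13174 tested genes at 0.05. F and M libraries were also fitted alone, and a fit with 4 group means gave the male minus female contrast. A gene's groups did not overlap when all 5 KO libraries lay on one side of all 5 C57 libraries of that sex. On simulated data with 200 of 13174 genes changed, calls in the right direction were made for 6% of genes changed by 0.1, 74% by 0.25, 98% by 0.5 and 96% by 1 on the log2 scale, with 3 calls among unchanged genes. The simulated noise was independent between genes and libraries. It held none of the differences between libraries in Ttr, Prl or GC slope, so it cannot show how many false calls these give.

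Genes were named as the 15 higher and 15 lower calls with the largest difference in the sex where it was smaller, up to 15 calls with no overlap in either sex, called members of the gene lists (or up to 3 with the smallest p), calls with opposite signs in the sexes, and genes of chromosome stretches. The calls ranked by size also needed a plain gene symbol and a minimum group mean. Names outside that rule were chosen after their values were seen: the remaining genes of the 39 that passed in every fit, Scn3a, Ddx3y, Atp2a1, Fxr1, Fxr2, Mbp and the called neighbours of Fmr1. The members and lists were chosen with earlier results of these data known. A few genes are not reported here. GC content came from the longest GENCODE M21 transcript of each gene. Alternatives were other scalings, filters, pseudocounts and variance models, removal of the GC trend, a block on the replicate number, and fits without single libraries, without those above 500 FPKM of Ttr, without those above 4 FPKM of Prl, or with both levels as covariates. Replicate numbers were checked for pairing by correlating the deviations of same-numbered C57 and KO libraries, which gave -0.0667 to 0.0651. This gave no sign of pairing, but a weak pairing could go unseen.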

Additional observations from a re-analysis of the deposited data

Results flagged for a closer look

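Among 408 groups of 5 libraries (named genes past the threshold and the 2 chromosome stretches), 29 held a library far from the other 4, by a gap of more than 0.71 of the group's range. Chance gives about 1 in 20 such groups. They lay in F_C57 9 times, in F_KO 8 times, in M_C57 5 times and in M_KO 7 times. All 4 groups of Laptm4b were among them, with 28.09 FPKM in F_C57 3 and 31.08 in M_C57 2 above the rest, and 18.81 in F_KO 1 and 16.32 in M_KO 3 below. No other gene had more than 2.

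In F_C57 4, the C57 library high in Ttr, 6 genes stood apart: Neurod6 at 150.5 FPKM, Slc35e1 at 10.25, Cort at 5.011, Col11a1 at 1.062, Marveld1 at 1.382 and Vamp2 at 199.9. In F_KO 1 these were Opalin at 10.44 FPKM, Cnksr2 at 38.15, Vamp2 at 222.9 and Ckm at 0.02901, the only F library where Ckm was read. In F_KO 4 they were Gng4 at 11.42 FPKM, Pls3 at 54.34 and Zfp973 at 2.538, the last at the level of the C57 libraries. Otof in F_C57 1 was at 0.9803 FPKM and Myh4 in F_C57 5 at 0.02602.

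In the male C57 libraries the values were 49.08 FPKM for Phyh in M_C57 3, 24.55 for Grin2a in M_C57 4, and 1.444 for Alox8 and 1.573 for Jsrp1 in M_C57 5. In the male KO libraries they were 21.01 FPKM for Nrxn3 and 15.04 for Cd99l2 in M_KO 1, 39.98 for Pkp4 and 0.2799 for Otof in M_KO 2, 4.526 for Trpc6 in M_KO 3 and 39.67 for Nnat in M_KO 5. The Nrxn3 and Pkp4 values were just under the lowest M_C57 library (21.1 and 40.6 FPKM), and the Cd99l2 value lay above the other KO libraries.

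For 3 muscle genes the KO difference of males differed from that of females by the contrast of the 4 group means (limma): Atp2a1 by -0.8477 (adjusted p = 0.000761), Ckm by -0.7583 (adjusted p = 0.000761) and Myh4 by -0.7796 (adjusted p = 0.00185). All 5 M_C57 libraries held more of each than any other library of the series.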

How the results depend on the processing

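The 331 genes that moved the same way (133 higher, 198 lower) became 126 (51 higher, 75 lower) without the 4 libraries high in Ttr, 78 (27 and 51) without the 3 high in Prl, and 117 (52 and 65) with both levels as covariates. Of these, 109, 73 and 112 were among the 331. The 260 genes at an unadjusted p under 0.05 in both separate fits became 152 without the Prl libraries. With a block on the replicate number, which the pairing check did not back, 72 genes passed (27 higher, 45 lower), 68 of them among the 331, and only 1 of 10 libraries correlated best with its own number. Leaving out each library in turn gave 205 to 427 genes in all, 83 to 198 higher, 122 to 229 lower, and 215 to 298 in both separate fits. The count was 205 without F_KO 2 (83 and 122), 208 without F_KO 3 (85 and 123) and 427 without M_C57 4, and 128 genes were lower without M_KO 3. The cause was not tested, and each of these fits also has fewer libraries. Upper-quartile rescaling (364), removal of the GC trend (270), no filter (328), a filter of 2 FPKM (366), a pseudocount of 0.1 (332), robust variance (329), library weights (404) and a mean per group (417) kept the count within 1.5 times. Fmr1 stayed lower and past the threshold under all 32 alternatives. Without counts, low genes such as Tekt4, Otof and Ckm have a precision that cannot be given.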
